A study of Mus musculus with 6 samples.

Results

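Transcripts of the synaptic vesicle release machinery were examined in whole brains of mice without the neural cell adhesion molecule NCAM and of wild-type mice. The set holds 9 genes, and all probe sets annotated with exactly 1 of these gene symbols were taken. This gave 10 probe sets for 8 genes, of 10833 such probe sets for 8251 genes on the array. Vamp2 and Rab3a had a pair of probe sets each, Snap25, Syt1, Syn2, Stx1a, Syp and Sypl had 1, and no probe set was matched to Syn1, which is not analysed here. The genes were chosen by their function and on their knockout and wild-type signals in these same 6 arrays, so their differences between the genotypes, and their counts in the fit over all probe sets, are given as descriptions that support no conclusion.

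The tested animals were 3 male mice with a constitutive knockout of Ncam1, and the controls were 3 male wild-type mice of the same C57BL/6J background. Knockout replicates 1 and 2 were 2 months old and knockout replicate 3 was 3 months old, and the wild-type replicates had the same ages. Each brain came from a separate individual, and its total RNA was measured on a one-colour Affymetrix array of its own. The knockout is present in every cell from conception, and whole-brain RNA mixes all regions and cell types, so fewer cells of a type and less RNA per cell cannot be told apart.

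Synaptic vesicles fuse with the presynaptic membrane when the vesicle protein synaptobrevin (Vamp2) zippers together with syntaxin (Stx1a) and SNAP-25 (Snap25) of the plasma membrane into the SNARE complex. Synaptotagmin (Syt1) senses the calcium that enters with the action potential and triggers fusion. Synapsins (Syn1 and Syn2) tether vesicles in the reserve pool, the small GTPase Rab3a guides vesicles to the release site, and synaptophysin (Syp) is an abundant membrane protein of the vesicle that binds synaptobrevin. Sypl encodes a relative of synaptophysin that is present in many tissues beside neurons. NCAM takes part in the formation and maturation of synapses, and the comparison asks how the brain transcriptome differs without it.

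The promoters of the physin pair are shown because Sypl differed between the groups without overlap and its neuronal relative Syp did not. The windows hold 250 bases before and 50 after a transcription start in RefSeq, build GRCm38.p6, on the plus strand, at chr12:32953695-32953994 for Sypl (the first of its overlapping pair of windows) and chrX:7638330-7638629 for Syp. Capitals mark the GC box GGGCGG or its complement CCGCCC on either strand.
Sypl: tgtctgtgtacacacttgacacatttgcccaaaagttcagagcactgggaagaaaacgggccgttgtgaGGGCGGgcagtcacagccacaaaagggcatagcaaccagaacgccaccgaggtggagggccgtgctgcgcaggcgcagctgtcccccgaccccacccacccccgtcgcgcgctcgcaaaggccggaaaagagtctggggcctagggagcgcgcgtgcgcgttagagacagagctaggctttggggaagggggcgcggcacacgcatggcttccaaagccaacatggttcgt
Syp: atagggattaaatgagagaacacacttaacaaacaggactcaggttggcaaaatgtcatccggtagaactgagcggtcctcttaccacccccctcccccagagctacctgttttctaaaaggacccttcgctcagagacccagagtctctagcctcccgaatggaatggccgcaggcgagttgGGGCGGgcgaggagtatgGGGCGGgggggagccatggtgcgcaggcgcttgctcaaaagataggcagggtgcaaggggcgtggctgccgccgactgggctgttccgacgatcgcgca
The GC box stood once in the Sypl window printed and 3 times in its other window (chr12:32953936-32954235), against 2 times in the Syp window. It was found in 7 of 11 windows of the 7 member genes with an entry (Stx1a, Syn2, Rab3a, Syt1, Sypl, Syp and Syn1), against 35.7% of all 32851 windows of the same length. These matches describe the letters in the windows, and no measurement of binding was made.

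The arrays shared 1 scale, with a mean signal of 299.9 to 300.0 over the middle of the values and pairwise correlations of log2 signals between 0.978 and 0.987. The brightest Ncam1 probe set read 276.2, 208.7 and 327.4 in knockout brains, against 1346, 1448 and 1216 in wild-type brains. A dimmer Ncam1 probe set read 100.9, 71.2 and 86.7 in knockout brains, against 154.7, 140.9 and 145.2 in the wild type. The remaining Ncam1 probe set was near background, at 3.53 to 6.92 in knockout brains and 4.54 to 8.49 in the wild type. Of 14 neuronal marker genes 12 were measured, all with a signal above 72.2 on at least 1 array, and they summed to 23829 to 25369 in knockout brains, against 24577 to 25632 in wild-type brains. Knockout replicate 2 stood apart for the cerebellum, with a summed signal of 2316 over the 8 of 9 marker genes measured, against 8464 and 9470 in the other knockout brains and 8760 to 9702 in wild-type brains. Gabra6, Ppp1r17, Car8, En2 and Cbln1 each read less there than on any other array, by over 3 times, and Gabra6, the granule cell GABA receptor subunit, read 11.8. Knockout replicate 1 stood apart for the pituitary, with a summed signal of 15660 over 7 marker genes, against 1199 and 1241 in the other knockout brains and 880.9 to 1025 in wild-type brains, and Gh, Prl, Pomc, Cga and Tshb were over 3 times every other array in it. The 3' to 5' signal ratio of the Gapdh control, a sign of RNA quality, ran between 0.811 and 0.826 on the knockout arrays, against 0.768 to 0.798 on the wild-type arrays. For the actin control the ratio overlapped, at 1.145 to 1.223 on the knockout arrays and 1.084 to 1.196 on the wild-type arrays.

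Signals were compared as log2(signal + 16), over the 7453 probe sets whose mean reached the 40th percentile, a signal of 72.2. Of the 10 member probe sets 9 did so. The dim Rab3a probe set, at 5.09 to 8.52 in knockout brains and 5.71 to 11.5 in wild-type brains, did not. The limma fit over all probe sets called 0.0268% of them at an adjusted p of 0.05, and 0 of the 9 members were among these, a count from which nothing is read. The groups did not overlap for 2 of the 9, Sypl and Rab3a, both lower in knockout brains, where 6.80% of all probe sets were lower and 6.08% higher without overlap. The median difference, knockout minus wild type, was -0.06 on the log2 scale over the members and 0.00 over all probe sets tested, and the median size of a difference was 0.10 for both. The median standard error was 0.09 for the members and 0.12 for all.

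**Figure D1:**
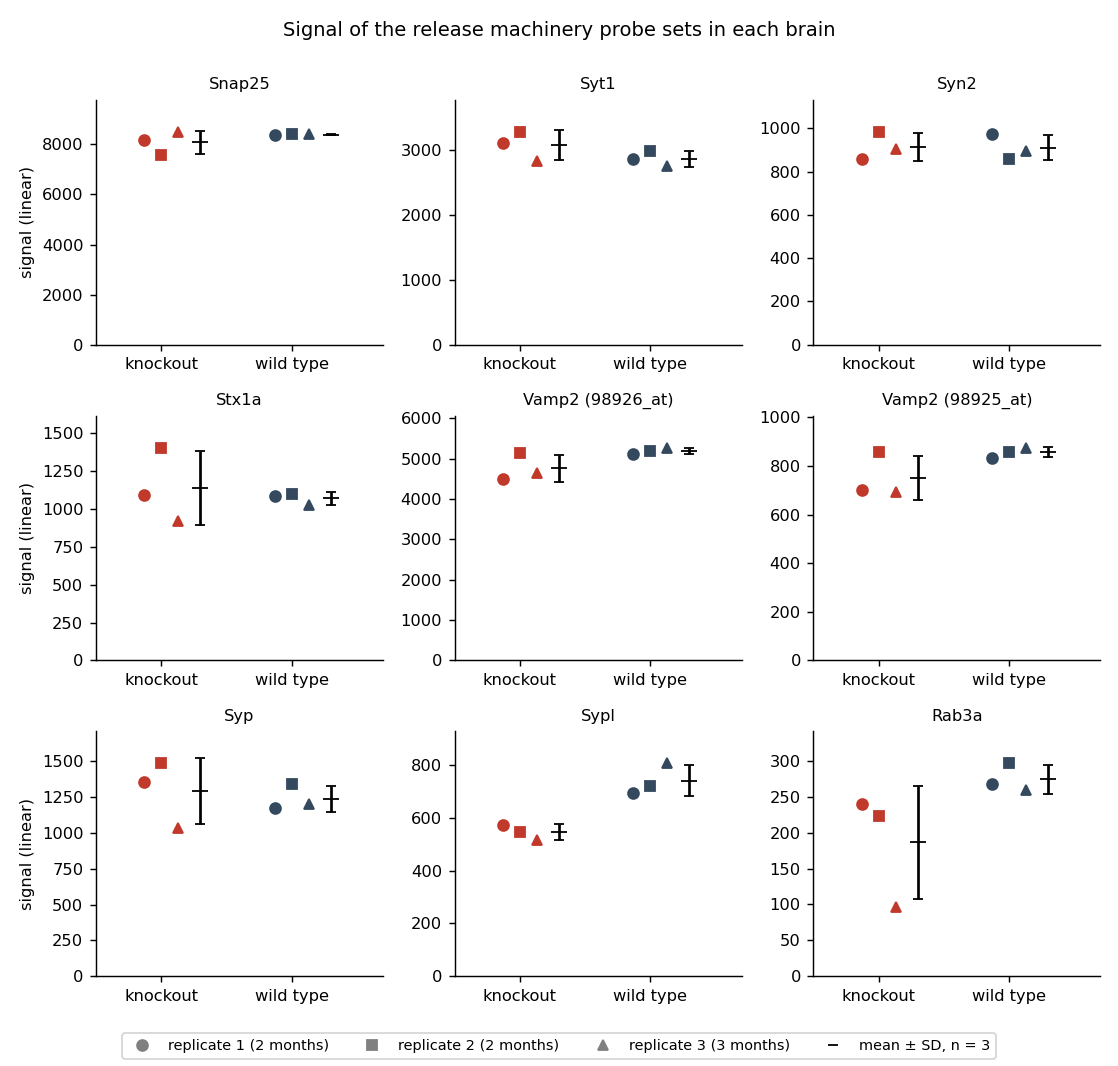
Signal (linear, arbitrary units, axis from 0) of the 9 tested probe sets in each animal, with knockout left and wild type right. Symbols give the replicate and its age, and bars the mean ± SD (n = 3). Only Sypl and Rab3a have every knockout animal below every wild-type animal, and Rab3a of knockout replicate 3 stands at 96.6.

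Among the SNARE proteins, Snap25, the membrane SNARE that contributes a pair of helices to the complex, read 8171, 7585 and 8508 in knockout brains, against 8370, 8409 and 8401 in wild-type brains. The wild-type animals lay within a very narrow band and the knockout animals on both sides of it, with the lowest value in knockout replicate 2. The difference was -0.06 ± 0.05 on the log2 scale (SE, n = 3 each). Stx1a, the syntaxin of the presynaptic membrane, read 1095, 1406 and 924 in knockout brains, against 1086, 1099 and 1024 in wild-type brains. Knockout replicate 2 was above and knockout replicate 3 below all wild-type animals, and the mean difference of 0.07 ± 0.13 was within that spread. Without knockout replicate 2 it was -0.09 and without knockout replicate 3 it was 0.21.

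Vamp2, the vesicle SNARE, was measured by a bright and a dimmer probe set, and on both the highest knockout value was that of knockout replicate 2. The bright one (98926_at) read 4505, 5140 and 4648 in knockout brains, against 5126, 5192 and 5278 in wild-type brains, which gave -0.13 ± 0.06. The dimmer one (98925_at) read 703, 856.7 and 694.3 in knockout brains, against 833.8, 857.9 and 875.8 in the wild type, a difference of -0.19 ± 0.10. On both, knockout replicates 1 and 3 were below every wild-type animal while knockout replicate 2 lay inside the wild-type range, so the groups overlapped. Without knockout replicate 2 the differences were -0.18 and -0.29, and both probe sets then stood without overlap, with Sypl and Rab3a, as 4 of 9 members where 14.0% of all probe sets were lower in that way. Without wild-type replicate 1 the same 4 did so, where 10.4% of all did.

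Syt1, the calcium sensor of fast release, read 3114, 3289 and 2834 in knockout brains, against 2863, 2996 and 2754 in wild-type brains. The groups overlapped, with knockout replicates 1 and 2 on top, and the difference was 0.10 ± 0.07. Syn2, a synapsin of the vesicle surface, read 857, 984.6 and 903 in knockout brains, against 972.6, 858.9 and 897.4 in wild-type brains. The ranges coincided, and the difference of 0.01 ± 0.08 was the nearest to 0 of all members.

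The physins differed from each other. Syp, synaptophysin, read 1354, 1484 and 1036 in knockout brains, against 1174, 1340 and 1198 in wild-type brains. Its knockout values spread to both sides of the wild-type range, and the difference was 0.05 ± 0.13, or -0.06 without knockout replicate 2 and 0.20 without knockout replicate 3. Sypl read 574.8, 547.4 and 515.3 in knockout brains, against 693.4, 721.9 and 806.5 in wild-type brains. Every knockout animal was below every wild-type animal, and the means were 545.8 ± 29.8 in knockout brains and 740.6 ± 58.8 in the wild type (SD, n = 3 each). On the log2(signal + 16) scale the difference was -0.43 ± 0.09, or 1.35-fold lower in knockout brains, and was between -0.47 and -0.33 over all alternatives tried. It was -0.63 at 3 months and -0.33 at 2 months. Sypl was measured by 1 probe set, so no other probe set can be set beside this value. Since Sypl is not restricted to neurons, glial markers are given beside it. Of 10 oligodendrocyte markers 8 were measured, 1 of them below 72.2 on all arrays, and their summed signal was 12298 to 13800 in knockout brains, against 13927 to 14915 in wild-type brains. Of 8 astrocyte markers 7 were measured, and they summed to 11853 to 12761 in knockout brains, against 12959 to 13332 in the wild type. Neither sum overlapped between the groups, but single genes did not all follow in either list. Mbp, Mobp, Mag and Ugt8a were lower in every knockout brain than in every wild-type brain. Mog, Cldn11, Mal and the dim Cnp overlapped. For the 8 oligodendrocyte genes the median deviation from the wild-type mean was -0.13, -0.11 and -0.32 in knockout brains. It was 0.00, 0.02 and -0.04 in the wild type, so these medians did not overlap. The astrocyte sum is carried by bright genes such as Aldoc, whose groups overlapped. Aqp4 was lower without overlap (1043, 864.9 and 1071 in knockout brains, against 1224, 1289 and 1097 in the wild type). So was S100b (765.1, 635.3 and 805.2 in knockout brains, against 918.1, 1212 and 844.8 in the wild type). The connexin Gja1 was higher without overlap (3082, 3313 and 3528 in knockout brains, against 3075, 3020 and 2705 in the wild type). Gfap, Slc1a2 and Glul overlapped. The median deviation of the 7 astrocyte genes was -0.07, -0.24 and -0.15 in knockout brains, against -0.05, 0.06 and -0.11 in the wild type, with overlap. The single glial genes were named after their values were seen. The sum of 8 microglial markers was 3004 to 3463 in knockout brains, against 3185 to 3318 in the wild type, and that of 8 endothelial markers was 1067 to 1379 in knockout brains, against 1141 to 1389 in the wild type. The part of these differences, and of the 3' to 5' control ratios, in the Sypl value was not tested.

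Rab3a, the vesicle GTPase, read 239.5, 223.2 and 96.6 in knockout brains, against 267.3, 296.5 and 258.7 in wild-type brains by its brighter probe set. The groups did not overlap, but knockout replicates 1 and 2 were close to the wild-type range and knockout replicate 3 was far below it. The means were 186.5 ± 78.2 in knockout brains and 274.2 ± 19.8 in the wild type (SD, n = 3 each), a difference of -0.61 ± 0.27. Without knockout replicate 3 the difference was -0.23, so most of it rests on 1 animal. The dim Rab3a probe set read 8.52 in that animal, above the other knockout animals but far below the limit for testing.

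**Figure D2:**
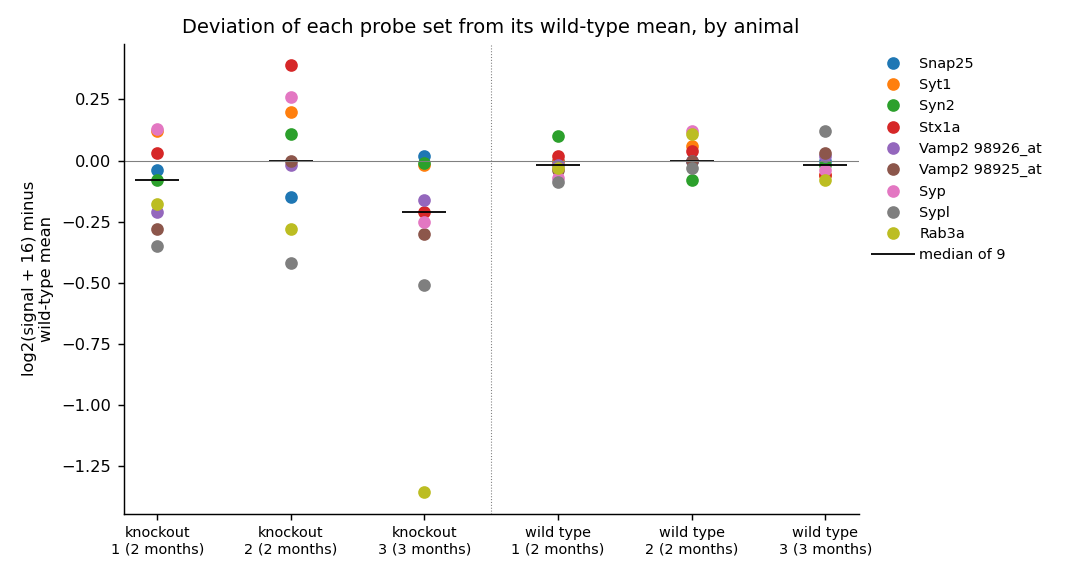
Log2(signal + 16) of each tested probe set minus its wild-type mean, for each animal (knockout left, wild type right), with a bar for the median of the 9. The median is -0.08, 0.00 and -0.21 in knockout replicates 1, 2 and 3 and lies between -0.02 and 0.00 in wild-type animals.

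The members spread to both sides of their wild-type means within each knockout animal, with 6, 4 and 8 of the 9 below it in knockout replicates 1, 2 and 3. The median deviation from the wild-type mean was -0.08, 0.00 and -0.21 in knockout replicates 1, 2 and 3, and -0.02, 0.00 and -0.02 in wild-type replicates 1, 2 and 3. Over all tested probe sets these medians were between 0.00 and 0.01. The plot of deviations by animal shows that in knockout replicate 2, the brain with low cerebellar markers, Stx1a stood at 0.39, Syp at 0.26, Syt1 at 0.20 and Syn2 at 0.11, while Snap25 stood at -0.15 and Sypl at -0.42. This animal had the highest of the 3 knockout values for 6 of the 9 probe sets, where 33.9% of all probe sets did, and the highest of all 6 arrays for 4, where 19.1% did. The part of the missing cerebellar signal in these values was not tested. In knockout replicate 3 all but Snap25, at 0.02, were below it. Stx1a stood there at -0.21, Syp at -0.25, Vamp2 at -0.16 and -0.30, Sypl at -0.51 and Rab3a at -1.36, with Syt1 at -0.02 and Syn2 at -0.01. In knockout replicate 1, the brain with high pituitary markers, both Vamp2 probe sets were low, at -0.21 and -0.28, and Syp stood at 0.13.

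Across the 6 arrays, as a description, Stx1a followed Syp (Pearson r = 0.89) and Syt1 (0.85), and Syt1 followed Syp (0.86). Snap25 ran against all of these, with r = -0.94 to Stx1a, -0.87 to Syt1 and -0.79 to Syp. Sypl had r = -0.01 to Syp and 0.71 to each of Vamp2 and Rab3a. Sypl, Vamp2 and Rab3a all had lower means in knockout brains. That genotype difference, used in the choice of genes, enters both values of 0.71. All these correlations over 6 arrays share the scaling of each array. Those among Stx1a, Syp, Syt1 and Snap25 also share the extreme position of knockout replicate 2. There the first 3 had their highest value and Snap25 its lowest. Among 5664 other genes, those most like Sypl were Arfrp1 (0.999), Rhog (0.990), Rnd2 (0.986), Psca (0.981) and Spsb1 (0.975). Those most like Snap25 were Rasal3 (0.993), Ifitm10 (0.993), Amotl2 (0.986), Rgs8 (0.984) and Hs3st3a1 (0.980). No member was among either set of 5. Both sets were picked as the highest of 5664 values over 6 arrays. How high such values run by search alone was not tested. The genes of both sets had lower means in knockout brains, as had Sypl and Snap25. Nothing follows from these values about shared control.

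Age was not used to choose the genes, and was tested with 2 brains of 3 months against 4 of 2 months and genotype as a covariate. In limma 0 of the 9 probe sets passed an adjusted p of 0.05, where 0.0268% of all did, and 2, Syp and Rab3a, had an unadjusted p under 0.05, where 12.4% of all did. Syp averaged 1117 at 3 months and 1338 at 2 months (log2 difference -0.26 ± 0.10, adjusted p = 0.382 in limma). Stx1a averaged 974.1 at 3 months and 1172 at 2 months (-0.26 ± 0.12, adjusted p = 0.413 in limma), and Syt1 2794 at 3 months and 3065 at 2 months (-0.13 ± 0.06, adjusted p = 0.413 in limma). All 3 had lower means at 3 months, and the differences of Syp, Stx1a and Syt1 were -0.07, -0.09 and -0.09 without knockout replicate 3, and -0.45, -0.42 and -0.17 without wild-type replicate 3. Leaving out replicate 3 of either genotype leaves a single brain of 3 months. Without knockout replicate 2 the Syp, Stx1a and Syt1 values were -0.20, -0.16 and -0.11. Without knockout replicate 1 they were -0.26, -0.31 and -0.14. Rab3a averaged 177.7 at 3 months and 256.6 at 2 months (-0.62 ± 0.21, adjusted p = 0.311 in limma), which was -0.12 without knockout replicate 3 and -1.13 without wild-type replicate 3. Snap25 had 0.06 ± 0.05, Syn2 -0.03 ± 0.09, Sypl 0.03 ± 0.09 and the Vamp2 probe sets -0.01 ± 0.06 and -0.05 ± 0.10. Sypl was 0.19 without knockout replicate 3 and -0.12 without wild-type replicate 3, so its age value had no settled direction.

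**Figure D3:**
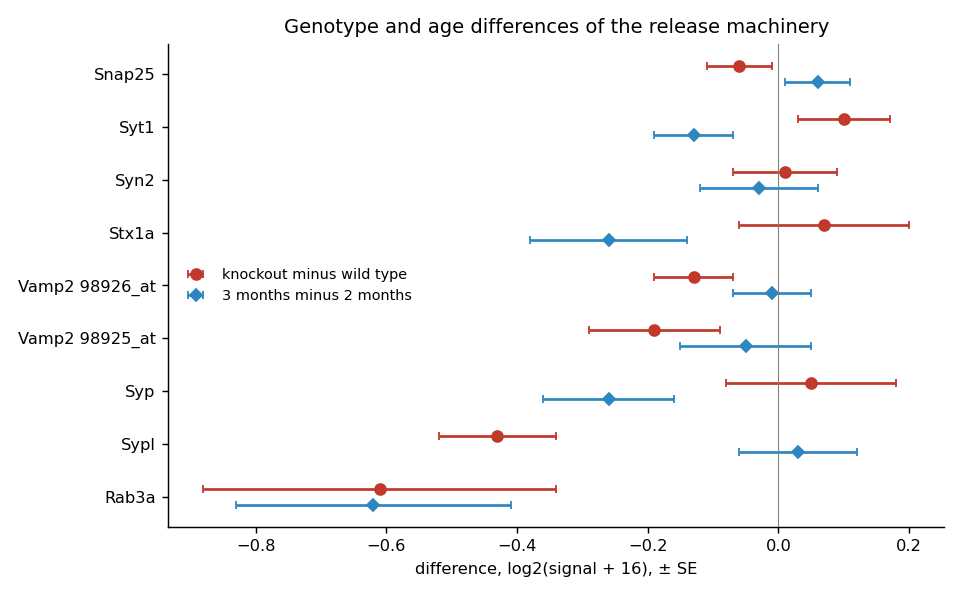
Differences on the log2(signal + 16) scale with their standard errors for the 9 tested probe sets, knockout minus wild type (circles) and 3 months minus 2 months (diamonds). Sypl is low by genotype (-0.43) and near 0 by age (0.03), while Stx1a and Syp are near 0 by genotype and at -0.26 by age.

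The genotype differences are also given at each age, as descriptions, since they use the values behind the choice of genes and rest on a single animal of each genotype at 3 months. Rab3a had -1.29 at 3 months and -0.27 at 2 months, the first from knockout replicate 3. Syp had -0.21 at 3 months and 0.17 at 2 months, and Stx1a -0.15 at 3 months and 0.18 at 2 months, with opposite signs at the 2 ages. Vamp2 had -0.18 at 3 months and -0.10 at 2 months by the bright probe set, and -0.33 at 3 months and -0.12 at 2 months by the dimmer one. Syt1 had 0.04 at 3 months and 0.13 at 2 months, Snap25 0.02 at 3 months and -0.09 at 2 months, and Syn2 0.01 at both ages. No change of the genotype difference with age can be read from 1 animal of each genotype.

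Other genes of vesicle release and recycling were set beside the members. Their lists were chosen with earlier results of these data known, so their counts and adjusted p values are descriptions. Of 103 genes listed, 62 had a probe set and 54 were tested by their brightest one. In limma 0 of the 54 passed an adjusted p of 0.05 in either direction, where 0.0177% of 5665 genes did. At an unadjusted p under 0.05, 3 were higher and 4 lower in knockout brains, where 6.78% of all genes were past that limit in either direction. The groups did not overlap for 5 higher and 6 lower, where 5.74% and 7.08% of all genes were so. The median difference was -0.01 over these genes and 0.00 over all genes tested.

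**Figure D4:**
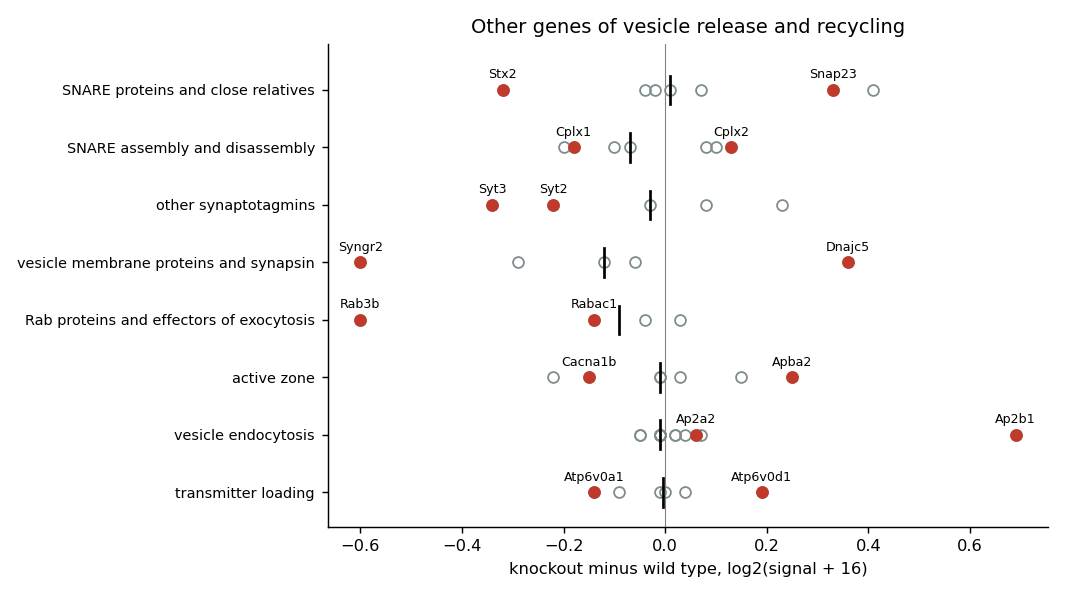
Knockout minus wild-type differences on the log2(signal + 16) scale for 54 other release genes in 8 lists. Each circle is a gene, the filled and named ones have the lowest p of their list, and the vertical bar is the list's median, which lies between -0.12 and 0.01.

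Relatives of the member SNAREs gave 7 tested genes with a median of 0.01. Stx2, a widely expressed syntaxin, had -0.32 ± 0.21, and Snap23, the widely expressed relative of Snap25, had 0.33 ± 0.26 at signals near the filter limit. The 7 genes of SNARE assembly and disassembly had a median of -0.07. The complexins, which clamp and assist the SNARE complex, had opposite signs. Cplx1 read 2369, 2412 and 2179 in knockout brains, against 2741, 2703 and 2439 in wild-type brains (-0.18 ± 0.07, adjusted p = 0.719 in limma). Cplx2 read 673.9, 667.5 and 653 in knockout brains, against 627.4, 628.7 and 558.7 in the wild type (0.13 ± 0.08, adjusted p = 0.763 in limma). Neither overlapped between the groups.

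Of 5 further synaptotagmins (median -0.03), Syt3 read 346, 403.7 and 336.9 in knockout brains, against 468.1, 447.9 and 467.5 in wild-type brains. That is -0.34 ± 0.10 (adjusted p = 0.548 in limma) with no overlap, while a second, dim and less specific Syt3 probe set had 0.04 ± 0.19. Syt2, the fast synaptotagmin of hindbrain and inhibitory terminals, had -0.22 ± 0.12 and -0.19 ± 0.24 by its pair of probe sets, and its lowest value, 1109, was in the brain with low cerebellar markers. Among 5 vesicle membrane genes (median -0.12), Dnajc5, the chaperone CSP-alpha that keeps Snap25 folded, read 754.2, 614.8 and 680.2 in knockout brains, against 519.1, 542.6 and 520.6 in the wild type. Each knockout value lay above each wild-type value, at 0.36 ± 0.09 (adjusted p = 0.494 in limma). Syngr2, the synaptogyrin of cells outside the nervous system, read 162, 144.8 and 92 in knockout brains, against 220.7, 202.5 and 194.1 in the wild type. Its groups did not overlap (-0.60 ± 0.19, adjusted p = 0.585 in limma), where 7.08% of all genes were lower in that way.

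The 4 genes around Rab proteins had a median of -0.09. Rabac1, which binds prenylated Rab proteins and Vamp2, read 4532, 4900 and 4674 in knockout brains, against 5331, 5040 and 5228 in wild-type brains (-0.14 ± 0.05, adjusted p = 0.719 in limma). Its groups did not overlap. Rab3b, a relative of Rab3a, read 66.6, 207.3 and 64.7 in knockout brains, against 139.9, 180.2 and 151.8 in the wild type. It was low in knockout replicates 1 and 3 and highest of all in knockout replicate 2, and the groups overlapped (-0.60 ± 0.35). The 7 active zone genes had a median of -0.01, with Apba2, an adaptor that binds the syntaxin partner Munc18, at 0.25 ± 0.11 (adjusted p = 0.719 in limma) and the N-type calcium channel subunit Cacna1b at -0.15 ± 0.11. Apba2 was higher without overlap, and Cacna1b overlapped.

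Vesicle endocytosis gave 13 tested genes with a median of -0.01. Ap2b1, a subunit of the clathrin adaptor AP-2, read 610.5, 438.8 and 605.8 in knockout brains, against 396.3, 369 and 251.9 in wild-type brains. The difference of 0.69 ± 0.18 did not pass (adjusted p = 0.502 in limma), although the groups did not overlap. Another AP-2 subunit, Ap2a2, had 0.06 ± 0.06 and 0.11 ± 0.10 by its pair of probe sets. Its brighter probe set, with the smaller difference, was also higher without overlap. The 6 genes of transmitter loading had a median of 0.00, with the proton pump subunits Atp6v0a1 at -0.14 ± 0.07 and Atp6v0d1 at 0.19 ± 0.10. Atp6v0a1 was lower without overlap, and Atp6v0d1 overlapped.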

How the data were processed

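Gene expression was measured on one-colour Affymetrix arrays in 6 brains, and genotype, age and replicate number were taken from the labels. The deposited values are signal intensities per probe set. The submitters' processing notes name GCOS 1.4, while its settings are not stated in any source used. From the values alone, the authors appear to have scaled each array to 1 target. The 66 control entries were removed. Of the other probe sets 10833 had 1 gene symbol in the platform annotation, 396 several and 1193 none.

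Values were transformed as log2(signal + 16), which understates folds of dim genes, and the 7453 probe sets whose mean reached the 40th percentile (6.46, or 72.2 as signal) were tested. Two-sided moderated tests came from limma 3.58.1 under R 4.3.3, whose eBayes step used an intensity trend. Benjamini-Hochberg adjustment ran over all tested probe sets, and the threshold was 0.05. Lists used the brightest tested probe set of a gene. The number of arrays limits the precision. Figures were drawn with matplotlib 3.10.9.

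The members and lists were chosen with earlier results of these data known. The text names every member probe set, Ncam1, the 2 genes of lowest p in each list, the 5 genes most like Sypl and Snap25, and markers that stood apart on 1 array. Single oligodendrocyte and astrocyte markers were named after their values were seen. Genotype differences of the members, and their counts of calls in the fit over all probe sets, are descriptions and not evidence, since the choice used the same values. A planned interaction of genotype and age is not given for them for that reason, and because each genotype had 1 animal of 3 months. Genotype differences and calls of the listed release genes are likewise given as descriptions. Same-numbered animals did not deviate together in every pair (correlations 0.01, 0.15 and 0.20), so the numbers were not taken as pairs. Alternatives changed the model (a replicate block, an age term, array weights, no trend), the animals (each one left out, or only those of 2 months), the scaling (quantile or median), the pseudocount (1 or 64) and the filter (none or the 60th percentile).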

Additional observations from a re-analysis of the deposited data

How the results depend on the processing

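Each replicate number and each age holds both genotypes equally, so a replicate block or an age term cannot change a genotype difference. The median over the members therefore stayed at -0.06, which is no check of it. Only the errors and calls can change, and 0 members were called with the block. The block called 2 probe sets in all, as before. Knockout replicate 1 correlated best with wild-type replicate 2 (0.08) and not with its own number (0.01). Knockout replicates 2 and 3 did correlate best with their own numbers (0.15 and 0.20), and replicates 3 also share their age. As a description, 0 members were among the probe sets called by limma for genotype under any alternative. Of the other release genes 0 were called when arrays were left out or weighted, or the scaling or pseudocount changed. For age, where the replicate block, the age term and the 2-month-old animals alone do not apply, 0 members were called under the remaining alternatives or without the genotype covariate. The median genotype difference over the members was -0.09 to -0.05 when 1 array was left out, -0.03 with quantile normalisation and -0.07 with median centring. The count of members lower in knockout brains without overlap, recomputed after the data were seen, ranged from 2 to 4 when 1 array was left out, at 4 without knockout replicate 2 or without wild-type replicate 1. It was 3 without knockout replicate 3, when Snap25 joined. In that setting Syt1 and Syp were higher without overlap, where 12.6% of all probe sets were higher in that way. Fewer arrays make such separation more frequent over all probe sets too (10.4% to 14.0% lower). Rab3a lay between -0.82 and -0.23, Stx1a between -0.09 and 0.21, Syp between -0.06 and 0.20, Sypl between -0.47 and -0.33, and Syn2 between -0.05 and 0.06. The 3 animals a group and signal near background for the dim Rab3a probe set limit what can be seen.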
